A study of Homo sapiens with 6 samples.

Results

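Open chromatin was examined at PAX3 and FOXO1, whose 5′ and 3′ parts are joined in the PAX3::FOXO1 fusion of RH30 cells, at PAX7, the alternative fusion partner, and at 7 genes known as targets of the fusion (FGFR4, ALK, MYCN, SOX8, TFAP2B, PIPOX and NOS1). Overlapping ATAC-seq peaks of all libraries were merged into 105569 regions. A region was assigned to one of the 10 genes when its top summit lay in the gene body or within 100 kb of it in GENCODE version 44 on GRCh38 (hg38), which gave 236 regions. Of these, 118 were called as peaks in all 6 libraries and could be compared by height, against 47885 of all regions (45.4%).

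ATAC-seq reads out open chromatin, since the Tn5 transposase places adapters where DNA is accessible. RH30 is a fusion-positive rhabdomyosarcoma line, and all cells were transduced with Cas9. Vector cells (3 libraries) received a non-targeting scramble guide, and MyoD-deleted cells (3 libraries) received guides against MyoD, the myogenic transcription factor. The text of the study also names RH30-SR cells, which carry an inhibitor of NF-κB, whereas its methods and the sample labels name RH30, and the labels do not say whether the MyoD-deleted cells were a pool or a clone. The replicates are labelled as biological, so the p-values below measure the spread between these libraries.

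PAX3::FOXO1 couples the DNA-binding domains of PAX3, a paired-box factor of muscle progenitors, to the transactivation domain of FOXO1, a forkhead factor. The fusion binds distal enhancers, where MyoD and MYOG, factors of the myogenic circuit, are found beside it, and keeps genes such as the receptor tyrosine kinases FGFR4 and ALK and the oncogene MYCN active. E boxes are the short sites that MyoD and related basic helix-loop-helix factors bind. Peaks were called without regard to alleles, so the fused and unfused copies of PAX3 and FOXO1 cannot be told apart, and neither can fewer cells with an open region and less opening per cell.

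Sequences are shown for the 5′ end of PAX3, which was open to a like height in both groups, and for regions with large changes of height in each direction. They are reference sequences of GRCh38, plus strand, within 100 bp of the top summit, not the sequence of the RH30 alleles. Capitals mark matches on either strand. An E box was searched for in its general form, CANNTG. The form CAGCTG, which is one of these, was counted apart. A homeodomain site was searched for as TAATTA, and an AP-1 site was searched for as TGACTCA. The core of a paired-domain site of PAX3, searched for as GTCACGG, is not in these windows. Nor is a TEAD site, for which the letters were GGAATG. The window at PAX3 (chr2:222298999-222299178) ends before the first exon and holds none of these letters.
PAX3 5′ end: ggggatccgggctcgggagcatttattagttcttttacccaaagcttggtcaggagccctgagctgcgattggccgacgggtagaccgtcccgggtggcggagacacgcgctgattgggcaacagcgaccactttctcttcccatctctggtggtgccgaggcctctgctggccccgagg
The window in intron 3 of ALK (chr2:29657853-29658053) surrounds the summit with the largest fall of all members, and it holds 6 E boxes, 1 of them CAGCTG, and 1 TAATTA.
ALK intron 3: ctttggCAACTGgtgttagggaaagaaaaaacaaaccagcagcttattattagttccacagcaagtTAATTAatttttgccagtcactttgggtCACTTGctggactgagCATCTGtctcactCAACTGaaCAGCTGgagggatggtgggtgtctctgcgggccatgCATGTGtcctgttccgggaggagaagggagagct
Each of the windows at SOX8, 73.4 kb downstream of its 5′ end (chr16:1055065-1055265) and just upstream of its 5′ end (chr16:981088-981288), holds 1 CAGCTG. The latter summit is nearer to the 5′ end of LMF1 (130 bp) than to that of SOX8 (582 bp).
SOX8 downstream: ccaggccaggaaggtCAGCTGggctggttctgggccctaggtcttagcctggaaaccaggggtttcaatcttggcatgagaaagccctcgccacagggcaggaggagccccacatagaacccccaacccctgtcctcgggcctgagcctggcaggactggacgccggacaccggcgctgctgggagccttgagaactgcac
SOX8 5′ end: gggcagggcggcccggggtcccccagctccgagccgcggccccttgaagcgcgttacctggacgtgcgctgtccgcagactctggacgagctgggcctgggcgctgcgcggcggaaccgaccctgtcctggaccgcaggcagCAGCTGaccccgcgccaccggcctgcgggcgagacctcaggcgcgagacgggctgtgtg
Of the regions that rose by height, the sequences of 2 in the body of MYO18A, downstream of PIPOX, are shown, the first being that with the largest rise. It (chr17:29131959-29132159) holds 1 CAGCTG, and the other (chr17:29155478-29155678) holds 1 TGACTCA and 1 other E box.
PIPOX downstream, higher: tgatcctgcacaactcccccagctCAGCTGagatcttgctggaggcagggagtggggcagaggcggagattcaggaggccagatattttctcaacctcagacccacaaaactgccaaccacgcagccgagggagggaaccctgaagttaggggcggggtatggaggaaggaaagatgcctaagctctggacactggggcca
PIPOX downstream, second: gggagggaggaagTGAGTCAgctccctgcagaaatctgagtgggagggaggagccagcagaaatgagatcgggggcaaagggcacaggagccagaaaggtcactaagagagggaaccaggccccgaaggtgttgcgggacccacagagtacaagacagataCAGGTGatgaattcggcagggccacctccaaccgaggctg

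The libraries held 63140 to 80608 peaks, and the median summit of the regions called in all 6 libraries had 56 to 81 fragments. Read totals are not in the peak lists, so the depth of each library in reads is unknown. The smallest background of a library, which follows its depth, was 3.41, 2.22 and 2.74 in vector and 2.27, 2.28 and 2.35 in MyoD-deleted libraries. Counting error was not estimated apart from the spread between libraries. Each of the 5 muscle markers looked at (MYOD1, MYOG, DES, CHRNA1 and MYMK) had a peak within 2 kb of its 5′ end in all 6 libraries. The blood markers PTPRC and CD3E had none. Of the epithelial markers, CDH1 had none, EPCAM had a peak in 5 libraries and KRT8 in 2 MyoD-deleted libraries. MYOD1, the targeted gene, had a peak at its 5′ end in both groups, with heights of 2.75, 2.84 and 2.94 in vector and 2.14, 2.50 and 2.43 in MyoD-deleted libraries, which does not read out the small edits that a guide leaves.

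Height below is the log2 of the fragments at a summit over the smallest background of the library, centred so that the median region of each library is at 0. It was compared with limma over all 47885 regions, with Benjamini-Hochberg adjustment. Of the 118 regions of the 10 genes, 42 were lower in MyoD-deleted cells (35.6%), where 12.8% of all regions were. In the other direction 4 were higher (3.39%), where 11.4% of all regions were. The median change was −0.23 at the 10 genes and 0.035 over all regions. Without centring the median region was 0.19 higher in MyoD-deleted libraries. Then 31 of the 118 regions of the 10 genes were lower and 13 higher, against 8.03% and 24.7% of all regions.

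The second measure was the fold enrichment that the peak caller gives, which divides the height by the background around the same peak. By its rank within a library, 10 of the 118 tested regions of the 10 genes were lower (8.47%), where 4.67% of all regions were. In the other direction 3 were higher (2.54%), where 4.12% of all regions were (limma, adjusted p under 0.05). By log2 fold enrichment itself the counts were also 10 and 3, against 5.03% and 4.11% of all regions. By the rank of −log10 p they were 33 and 4 of the 118, against 10.9% and 9.03% of all regions. Of the 42 regions lower by height, 35 had a lower fold enrichment too, and 10 passed the test by it. The background read around a peak also holds the peak's own fragments, and it moved with height at several of these genes, as given below.

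Regions called in all 3 MyoD-deleted and in no vector library are termed gained, and the opposite lost. At the 10 genes 11 regions were lost, 4.66% of the 236, where 1.78% of all regions were, and 5 were gained (2.12%), where 4.56% of all regions were. The 10 genes held 172.7 ± 18.0 peaks in vector libraries and 158.7 ± 9.29 in MyoD-deleted libraries (SD, n = 3 each). This difference of −14 did not exceed the spread between libraries (exact two-sided permutation test, p = 0.4, where 3 libraries against 3 cannot give less than 0.1). All peaks of the libraries, in contrast, numbered 67315 ± 5945 in vector and 78264 ± 3914 in MyoD-deleted cells (exact p = 0.2).

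The calls were unevenly spread over the genes, as the plot of changes by gene shows. SOX8 had 12 of 14 tested regions lower and MYCN 7 of 10, ALK had 8 of 23, NOS1 4 of 11, FOXO1 3 of 11, PIPOX 3 of 23, PAX3 2 of 8, FGFR4 2 of 11 and PAX7 1 of 7. The shares at PIPOX (13.0%), PAX7 (14.3%) and FGFR4 (18.2%) were the nearest to the 12.8% of all regions. TFAP2B had no region called in all libraries. The regions higher in MyoD-deleted cells lay at PIPOX (3, 13.0%) and MYCN (1, 10%), where 11.4% of all regions were higher.

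**Figure D1:**
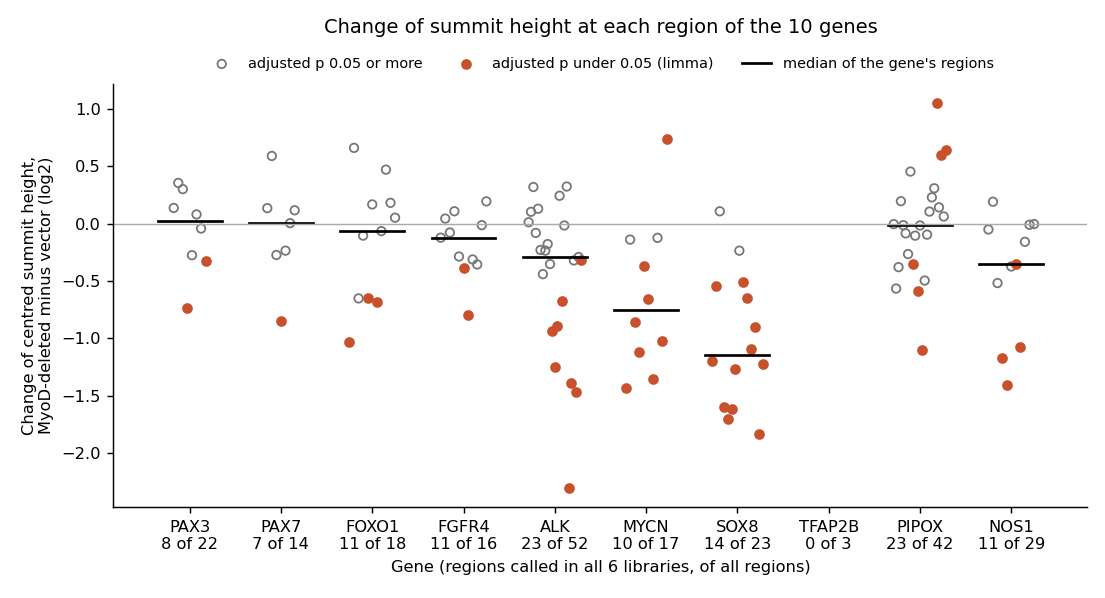
Each point is a region called in all 6 libraries, placed by gene (x axis) and by its change of centred log2 summit height, MyoD-deleted minus vector (y axis). Filled points passed limma at an adjusted p under 0.05 and bars are medians, which ran from −1.14 at SOX8 and −0.75 at MYCN to 0.020 at PAX3.

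Regions lower in MyoD-deleted cells lay at 5′ ends, in gene bodies and outside them. Within 2 kb of a 5′ end were 10 regions, of which 9 were in all libraries and 4 were lower, at ALK, MYCN, SOX8 and NOS1. In the rest of the gene bodies 16 of 37 tested regions were lower and none was higher. Outside the gene bodies 22 of 72 were lower and 4 were higher. The difference between these shares was not tested.

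PAX3 (ENSG00000135903.20, chr2:222199887-222298998, minus strand) kept its open 5′ end. The region there (chr2:222298133-222299503) was the highest of the locus, with heights of 3.20, 3.01 and 3.09 in vector and 3.13, 3.03 and 3.01 in MyoD-deleted libraries. The groups overlapped, with a change of −0.041 ± 0.087 (SE; limma, adjusted p = 0.788). A region 19.3 kb upstream (chr2:222318088-222320168) was at 2.61, 2.79 and 2.79 against 2.44, 2.39 and 2.38, so that every MyoD-deleted library lay below every vector library (−0.33, limma adjusted p = 0.0135). Its summit lies in the body of another annotated gene, ENSG00000288658, 1832 bp from the 5′ end of that gene. Fold enrichment of this region went the other way, from 7.886 ± 0.244 in vector to 9.798 ± 0.610 in MyoD-deleted libraries (SD, n = 3), without overlap. After centring its log2 change was 0.17 (limma, adjusted p = 0.326), with the background around it at 0.726 of that in vector cells.

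In intron 5 of PAX3 (chr2:222227781-222228738) the change was −0.74 (limma, adjusted p = 0.0213), with vector libraries from −1.04 to −0.17 and MyoD-deleted libraries from −1.34 to −1.27. The call in intron 5 was lost without vector replicate 1 or 2 or MyoD-deleted replicate 1 or 2 (limma, adjusted p of up to 0.0851), and that upstream without vector replicate 2 or 3 or MyoD-deleted replicate 2 or 3 (up to 0.0929). Neither held without centring. In intron 4 (chr2:222261007-222262100) a low peak was gained, at −1.95, −2.04 and −1.92. The rank test called no region of PAX3.

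PAX7 (ENSG00000009709.12, chr1:18630846-18748866, plus strand), which takes the place of PAX3 in a part of fusion-positive tumors, had no region within 2 kb of its 5′ end, and its highest one lay in intron 5. That region (chr1:18693134-18694160) was at 1.88, 1.38 and 1.56 in vector and at 1.26, 1.46 and 1.28 in MyoD-deleted libraries, which overlapped (−0.27 ± 0.13, SE; limma, adjusted p = 0.134). In intron 7 (chr1:18711429-18712813) heights were 0.52, −0.13 and 0.37 against −0.57, −0.46 and −0.77. This was the only called region of PAX7 (−0.85, limma adjusted p = 0.00265), and the call held with each library left out. PAX7 had no gained and no lost region.

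FOXO1 (ENSG00000150907.10, chr13:40555667-40666641, minus strand) also kept its 5′ end, where the region chr13:40665947-40667258 changed by −0.064 ± 0.12 (SE; limma, adjusted p = 0.766). The second region near the 5′ end (chr13:40664737-40665411) was called in 1 vector and 3 MyoD-deleted libraries. Intron 1, the long intron in which the fusion joins the gene, held the highest region of the locus, which was not called, and another that was lower. The highest region of the locus (chr13:40562632-40563764) was at 2.35, 2.01 and 2.00 in vector and 2.16, 2.41 and 2.30 in MyoD-deleted libraries, overlapping (0.17, limma adjusted p = 0.303).

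The other large region of FOXO1 intron 1 (chr13:40589234-40591163) was at 1.94, 1.90 and 1.78 in vector and 1.23, 1.18 and 1.15 in MyoD-deleted libraries, without overlap (−0.68, limma adjusted p = 0.000125). Its fold enrichment did not fall (log2 change 0.12, limma adjusted p = 0.401), as the background around it was 0.571 of that in vector cells. Downstream of the gene, a region at chr13:40456449-40457389 fell by 1.03 (limma, adjusted p = 0.000402) and was lower by rank too. Another at chr13:40549106-40550198 changed by −0.65 (limma, adjusted p = 0.0229), a call that was lost without vector replicate 1 or MyoD-deleted replicate 1 or 3 (adjusted p of up to 0.106). FOXO1 had no gained or lost region.

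FGFR4 (ENSG00000160867.15, chr5:177086905-177098144, plus strand), a receptor tyrosine kinase for fibroblast growth factors, was open at its 5′ end in both groups. The region chr5:177086105-177087702, whose summit lies in the first exon, had heights of 2.50, 2.80 and 2.90 in vector and 2.92, 2.70 and 2.90 in MyoD-deleted libraries (0.11 ± 0.11, SE; limma, adjusted p = 0.512). Downstream of the gene 2 regions were lower. That at 19.0 kb from the 5′ end (chr5:177105245-177106365) went from 2.16, 2.12 and 2.05 to 1.11, 1.36 and 1.48, with no overlap (−0.80, limma adjusted p = 5.48e-05). The region at 14.0 kb (chr5:177100585-177101225) changed by −0.39 (limma, adjusted p = 0.0392), a call that was lost without vector replicate 2 or 3 or MyoD-deleted replicate 1 or 3 (adjusted p of up to 0.231). Neither was called by rank.

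ALK (ENSG00000171094.18, chr2:29192774-29921586, minus strand), the anaplastic lymphoma kinase, is the longest of the 10 genes (728.8 kb) and had the most regions, 52. It held 44, 38 and 42 peaks in vector and 29, 31 and 34 in MyoD-deleted libraries, so that every MyoD-deleted library had fewer (mean difference −10; exact p = 0.1, the smallest possible). Of its regions 6 were lost and 2 gained. The lost ones lay in introns 1 (2 regions), 2 (1), 3 (1) and 4 (2), and the gained ones in intron 8.

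The largest fall at any of the 10 genes was in intron 3 of ALK (chr2:29657319-29658416), 263.6 kb into the gene, whose summit sequence is printed above. Heights were 0.83, 1.33 and 1.08 in vector and −1.54, −1.34 and −0.80 in MyoD-deleted libraries. All vector libraries were above the median region and all MyoD-deleted libraries below it, with a change of −2.31 ± 0.20 (SE; limma, adjusted p = 6.96e-07), 0.202 of the vector height. Fold enrichment fell from 10.5 ± 0.767 to 7.79 ± 1.27 (SD, n = 3; log2 change −0.58, limma adjusted p = 0.0163). The background around the peak was at 0.252 of that in vector cells, a ratio that, unlike that of height, is not centred. In MyoD-deleted replicates 1 and 2 it was close to the smallest of the library (log2 of 0.022 and 8.2e-06 over it), below which it cannot fall.

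Close to it, still in intron 3, the region chr2:29660122-29660578 was lost, after heights of −1.02, −0.28 and −0.59 in vector libraries. In intron 1, chr2:29810713-29811885 went from 0.30, 0.64 and 0.35 to −1.0, −0.83 and −1.28 (−1.47, limma adjusted p = 1.6e-05). In intron 2, chr2:29705759-29707099 changed by −1.39 (limma, adjusted p = 0.000485) and its fold enrichment from 7.65 ± 1.38 to 3.94 ± 0.5. In intron 4, chr2:29398309-29399498 changed by −1.25 (limma, adjusted p = 1.95e-05). These regions of introns 1, 2 and 4 and the region of intron 3 with the largest fall were the 4 of ALK also lower by rank. The lost region could not be tested by rank. In the region of intron 2 the background of every MyoD-deleted library was the smallest of that library.

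In intron 5 of ALK (chr2:29360378-29361862) height changed by −0.93 (limma, adjusted p = 0.000327), with fold enrichment at 11.1 ± 0.429 and 11.5 ± 0.681. The region at the 5′ end (chr2:29920228-29922155) was the highest of the gene. It was at 2.29, 2.59 and 2.54 in vector and 2.00, 2.32 and 2.14 in MyoD-deleted libraries, which overlapped. Its change of −0.32 (limma, adjusted p = 0.0394) was not called without vector replicate 2 or 3 or MyoD-deleted replicate 1 or 3 (adjusted p of up to 0.2), nor without centring. Fold enrichment there went the other way, from 12.39 ± 0.466 in vector to 15.35 ± 1.796 in MyoD-deleted libraries (SD, n = 3). That was a log2 change of 0.16 after centring (limma, adjusted p = 0.18), with the background around the peak at 0.728 of that in vector cells. Among the lost regions the highest was chr2:29475177-29476169 in intron 4, at −0.27, −0.42 and −0.32. The others were between −2.53 and −0.28 in vector libraries.

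MYCN (ENSG00000134323.13, chr2:15940550-15947007, plus strand), a MYC family transcription factor, had 17 regions, most of them outside its short body. The strongest call was 50.6 kb upstream (chr2:15889220-15890600), with heights of 1.73, 2.04 and 2.03 in vector and 0.55, 0.30 and 0.67 in MyoD-deleted libraries. The groups stood far apart (−1.43 ± 0.13, SE; limma, adjusted p = 1.03e-06). The window within 100 bp of its summit holds 5 E boxes, 3 of them CAGCTG.

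Downstream of MYCN, 98.2 kb from the 5′ end, chr2:16037590-16039386 went from 2.03, 2.14 and 2.30 to 1.26, 0.97 and 1.16 (−1.02, limma adjusted p = 6.15e-06). The regions 52.9 kb downstream (chr2:15992915-15993924), 20.3 kb upstream (chr2:15919575-15921121) and 25.7 kb upstream (chr2:15914563-15915842) changed by −1.35, −1.12 and −0.85 (limma, adjusted p of 8.9e-05, 0.000171 and 0.00028). The region at the 5′ end (chr2:15939688-15941050) was at 1.80, 2.27 and 2.32 against 1.92, 1.70 and 1.67, which overlapped. Its change of −0.36 (limma, adjusted p = 0.0465) was not called without any one of the libraries other than vector replicate 1 (adjusted p of up to 0.218), nor without centring.

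In the other direction, a region 104.6 kb from the 5′ end of MYCN (chr2:16044761-16045480), picked out after its values were seen, rose by 0.74 (limma, adjusted p = 0.022) and was higher by rank. One region was lost 90.6 kb upstream (chr2:15849634-15850383) and one gained 76.9 kb downstream (chr2:16017235-16017767). No region of MYCN was lower by rank. Fold enrichment at the strongest call was 10.2 ± 0.329 in vector and 10 ± 0.113 in MyoD-deleted libraries (SD, n = 3), with the background around it at 0.401.

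SOX8 (ENSG00000005513.10, chr16:981770-986979, plus strand), a SOXE family transcription factor, was the gene with the most uniform change of height. By log2 fold enrichment 2 of its 14 tested regions were lower (14.3%) and 1 higher (7.14%), against 5.03% and 4.11% of all regions. At its 5′ end (chr16:980778-982253) heights were 1.45, 1.63 and 1.74 in vector and −0.13, 0.00 and −0.16 in MyoD-deleted libraries. The summit there lies 582 bp upstream of the 5′ end of SOX8, inside LMF1 and 130 bp from the 5′ end of that gene. Which of the genes the region serves cannot be told. Every MyoD-deleted library had come down to the median region or just below it (−1.70 ± 0.13, SE; limma, adjusted p = 2.68e-07), 0.307 of the vector height. Fold enrichment there went from 6.73 ± 0.37 to 5.03 ± 0.578 (SD, n = 3; limma, adjusted p = 0.0323), and the region was lower by rank.

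The neighbouring region 7.0 kb upstream (chr16:974301-975374), inside LMF1, went from 2.26, 2.52 and 2.52 to 0.83, 0.57 and 1.10 (−1.60, limma adjusted p = 4.99e-07) and was the second of SOX8 that was lower by rank. Downstream, chr16:1052713-1055446 changed by −1.84, chr16:988365-989855 by −1.62 and chr16:997251-998370 by −1.27 (limma, adjusted p of 8.95e-07, 7.74e-07 and 2e-05). Their log2 fold enrichment changed by −0.13, −0.40 and −0.19, which was not called (limma, adjusted p of 0.689, 0.0787 and 0.349). The background around them was at 0.394, 0.418 and 0.458 of that in vector cells. The summit of chr16:1052713-1055446 is nearer to the 5′ end of SSTR5 (17582 bp) than to that of SOX8 (73.4 kb). The highest region of the locus, 68.9 kb upstream (chr16:912221-913428), changed by −0.54 (limma, adjusted p = 0.014), a call that was lost without vector replicate 2 or 3 or MyoD-deleted replicate 1 or 2 (adjusted p of up to 0.0965) and without centring. A further region 60.4 kb downstream (chr16:1041944-1042506) was lost, after 0.58, 0.92 and 1.00.

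At SOX8 2 tested regions were not lower, and they are named after their values were seen. The one 10.8 kb upstream (chr16:970561-971397) was at 1.51, 1.47 and 1.73 in vector and 1.64, 1.76 and 1.63 in MyoD-deleted libraries, overlapping by height (0.11, limma adjusted p = 0.523) but higher by rank (limma, adjusted p = 0.00559). The one 21.2 kb downstream (chr16:1002544-1003751) changed by −0.23 (limma, adjusted p = 0.161). The first of these is the neighbour of the region that fell by 1.60 on the log2 scale.

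**Figure D2:**
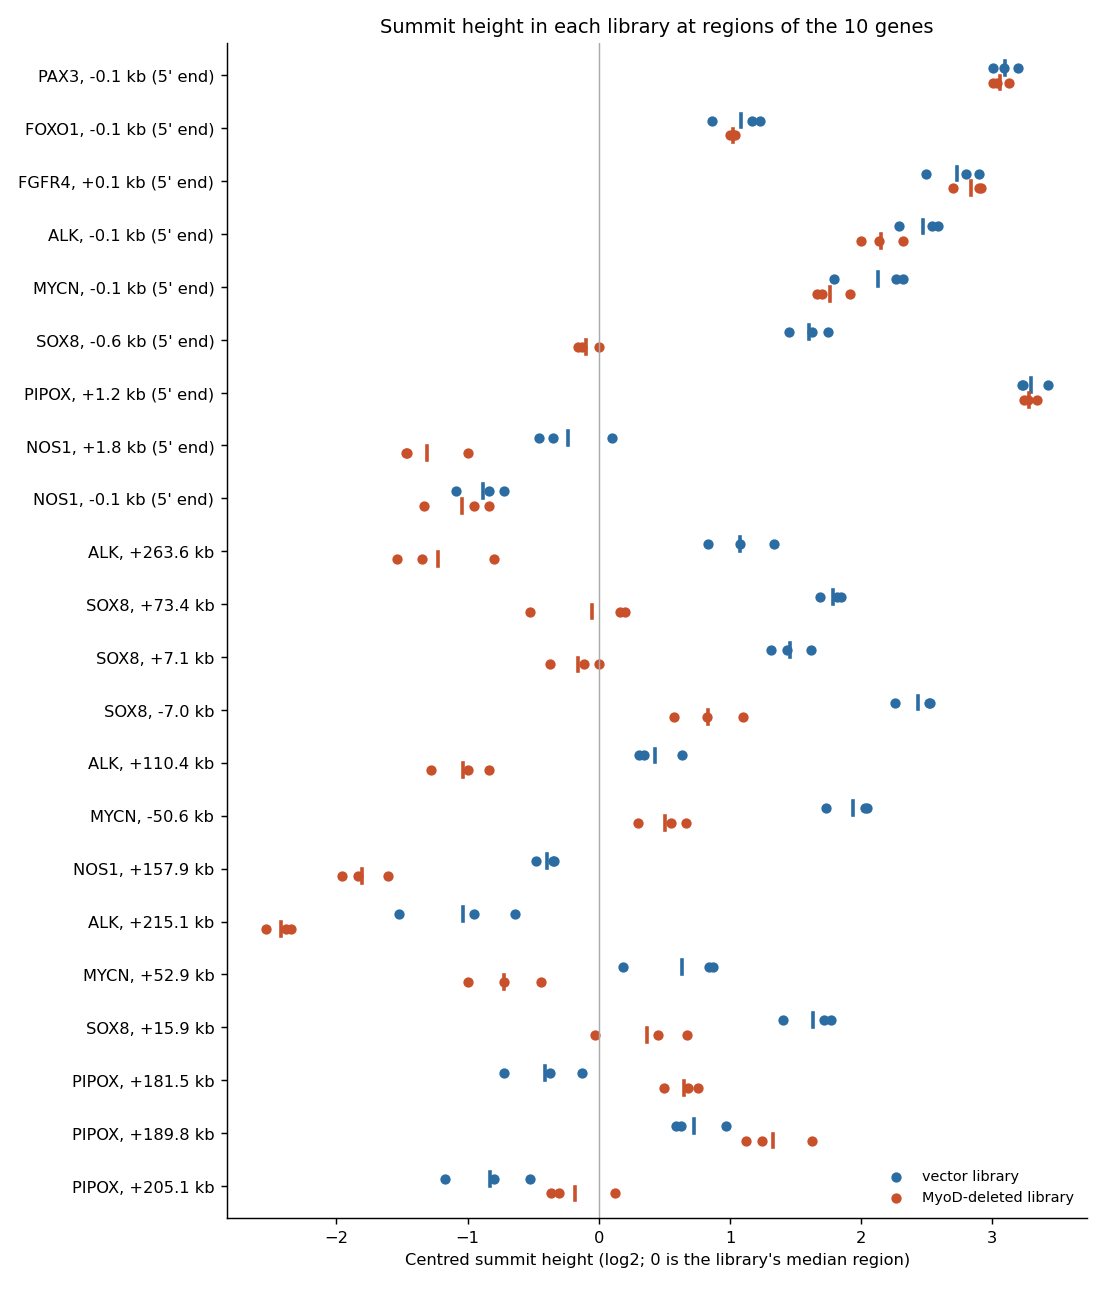
Each dot is the centred log2 summit height (x axis) of a region in one library and the ticks are group means. The rows are the 5′ ends and then the regions with the largest falls and the rises at PIPOX, with the distance from the gene's 5′ end along transcription. The row PIPOX, +1.2 kb is the promoter of PHF12, and the row for the 5′ end of SOX8 also lies at the 5′ end of LMF1. The groups of the region in intron 3 of ALK (+263.6 kb) and of the SOX8 rows do not overlap.

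TFAP2B (ENSG00000008196.13, chr6:50818723-50847619, plus strand), an AP-2 transcription factor, was nearly without peaks. Its 3 regions were called in 5, 4 and 2 libraries, at heights between −2.63 and −1.24, and none lay within 2 kb of the 5′ end. The nearest (chr6:50815823-50816341) was 2.6 kb upstream and was called in 2 vector and 3 MyoD-deleted libraries. With no region in all 6 libraries, no height was tested.

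PIPOX (ENSG00000179761.12, chr17:28950513-29057216, plus strand), the peroxisomal pipecolic acid oxidase, has an annotated body that begins at the promoter of PHF12, far upstream of its main transcript (ENST00000323372.9), which begins at chr17:29043141. The region at the first of these (chr17:28951197-28952743) changed by −0.012 (limma, adjusted p = 0.944), and that covering the start of the main transcript (chr17:29042466-29043429) by −0.10 (limma, adjusted p = 0.617). The highest region of the transcript itself was in its intron 2 (chr17:29048172-29049314). It was at 3.09, 3.29 and 3.14 in vector and 2.45, 2.53 and 2.78 in MyoD-deleted libraries, without overlap (−0.59, limma adjusted p = 0.000342).

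Downstream of PIPOX, chr17:29065584-29066880 fell by 1.10 (limma, adjusted p = 0.000218) and was lower by rank. Further on, inside MYO18A, 3 regions rose. The one 181.5 kb from the annotated 5′ end (chr17:29131766-29132482) went from −0.13, −0.72 and −0.37 to 0.50, 0.68 and 0.76, which is 2.08 times the vector height (1.05 ± 0.17, SE; limma, adjusted p = 0.00019), and was higher by rank. Those at chr17:29139841-29141031 and chr17:29155120-29155905 rose by 0.60 and 0.65 (limma, adjusted p of 0.00548 and 0.0276), and the call of the latter was lost without vector replicate 1 or 3 or MyoD-deleted replicate 2 (up to 0.153). Fold enrichment did not rise at the latter (log2 change −0.096, limma adjusted p = 0.807), where the background was 1.78 times that in vector cells. One region was lost (chr17:29090982-29092444) and one gained (chr17:28973219-28973817).

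NOS1 (ENSG00000089250.20, chr12:117208142-117452170, minus strand), the neuronal nitric oxide synthase, which is also the synthase of skeletal muscle, has its annotated 5′ end far upstream of that of its main transcript (ENST00000317775.11, chr12:117361626). At the annotated end chr12:117451698-117452441 changed by −0.16 ± 0.21 (SE; limma, adjusted p = 0.643). The region 1.8 kb inside (chr12:117450038-117451007) went from 0.10, −0.35 and −0.46 to −1.47, −1.46 and −1.0, without overlap (−1.07, limma adjusted p = 0.00112). The highest region (chr12:117441566-117442298) changed by −0.35 (limma, adjusted p = 0.0493) and was not called without vector replicate 2 or 3 or MyoD-deleted replicate 1 or 3 (adjusted p of up to 0.169), nor without centring. Its fold enrichment went the other way, from 8.583 ± 0.711 to 10.02 ± 0.655 (SD, n = 3), a log2 change of 0.083 after centring (limma, adjusted p = 0.672).

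The largest changes of NOS1 were inside the main transcript. In intron 3, chr12:117293959-117294963 was at −0.48, −0.35 and −0.34 in vector and −1.61, −1.96 and −1.84 in MyoD-deleted libraries, far apart (−1.41 ± 0.20, SE; limma, adjusted p = 6.22e-05). In intron 7, chr12:117283954-117284916 changed by −1.17 (limma, adjusted p = 0.000105). Both were lower by rank, with fold enrichments of 10.6 ± 1.09 and 13.5 ± 0.486 in vector and 5.87 ± 0.327 and 10.8 ± 1.25 in MyoD-deleted libraries. In both regions the background of every MyoD-deleted library was the smallest of that library. The lost regions were at chr12:117437875-117438514 and, past the 3′ end, chr12:117202558-117202980.

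**Figure D3:**
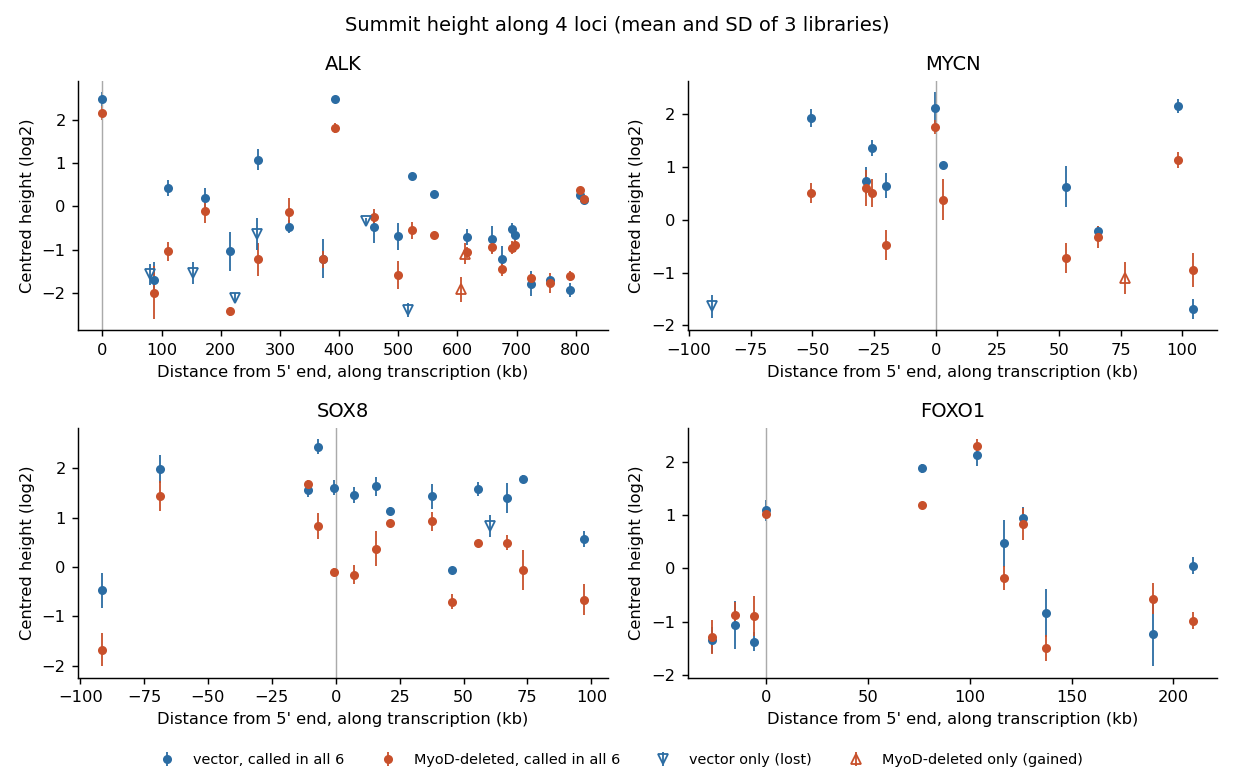
Mean centred log2 summit height with SD over 3 libraries (y axis) against the distance from the gene's 5′ end along transcription in kb (x axis), for all regions of ALK, MYCN, SOX8 and FOXO1 that were called in all 6 libraries, gained or lost. At SOX8 the MyoD-deleted means lie below the vector means at 13 of 14 regions and at ALK at 17 of 23.

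The median height over the regions of a gene in a library was 1.52 ± 0.14 in vector and 0.40 ± 0.05 in MyoD-deleted cells at SOX8 (SD, n = 3). At MYCN it was 0.90 ± 0.14 and 0.39 ± 0.24, at ALK −0.55 ± 0.13 and −1.0 ± 0.09, at NOS1 −0.36 ± 0.06 and −0.91 ± 0.07, and at FOXO1 0.05 ± 0.16 and −0.57 ± 0.28. In these 5 genes no MyoD-deleted library reached a vector library (exact two-sided permutation test, p = 0.1 each, the smallest possible). At PAX3 (−0.30 ± 0.35 and 0.02 ± 0.11), PAX7 (−0.63 ± 0.25 and −0.80 ± 0.22), FGFR4 (1.06 ± 0.10 and 1.08 ± 0.16) and PIPOX (0.30 ± 0.15 and 0.29 ± 0.11) the groups overlapped (exact p of 0.3, 0.5, 0.8 and 0.9). The median of the single regions' changes differed from the change of these medians at most of the genes. It was of the other sign at PAX7 (0.0055, against −0.17) and FGFR4 (−0.12, against 0.012). It was nearer 0 at PAX3 (0.020, against 0.32), FOXO1 (−0.064, against −0.62), ALK (−0.29, against −0.45) and NOS1 (−0.35, against −0.55). It was further from 0 at MYCN (−0.75, against −0.51), and close at SOX8 (−1.15, against −1.12) and PIPOX (−0.012 by both).

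The mean background that the peak caller read around the peaks was lower in MyoD-deleted cells, as the median height was, at SOX8, MYCN, ALK, NOS1, FOXO1 and PAX7, though the libraries of the groups overlapped in background at FOXO1 and PAX7. At SOX8 it was 7.08, 7.54 and 8.47 times the smallest background of the library in vector and 3.97, 4.03 and 4.42 times in MyoD-deleted cells, a ratio of 0.538. At MYCN it went from 6.95, 9.41 and 9.45 to 4.41, 3.99 and 5.41, a ratio of 0.535. The ratio was 0.679 at ALK, 0.752 at NOS1, between 0.845 and 0.906 at PAX3, PAX7, FOXO1 and FGFR4, 1.12 at PIPOX and 1.03 over all regions. At PAX3 the background was lower while the change of the median height was 0.32, and at FGFR4 and PIPOX that change was 0.012 and −0.012. The part of the background in the changes of height was not tested.

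Distance bins around the genes, chosen after these values were seen, showed how far the lower heights reached. At SOX8 12 of 14 regions within 100 kb were lower (median change −1.14), and 2 of 16 between 100 and 250 kb (−0.12), 2 of 35 between 250 and 500 kb (−0.023) and 2 of 49 between 500 and 1000 kb (0.084). The background ratio was 0.538, 0.851, 1.08 and 1.09 in the same bins. At ALK 8 of 23 regions were lower within 100 kb, 2 of 13, 2 of 18 and 4 of 36 in the further bins, and at MYCN 7 of 10, 2 of 2, 1 of 14 and 2 of 18. Of all regions 12.8% were lower.

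**Figure D4:**
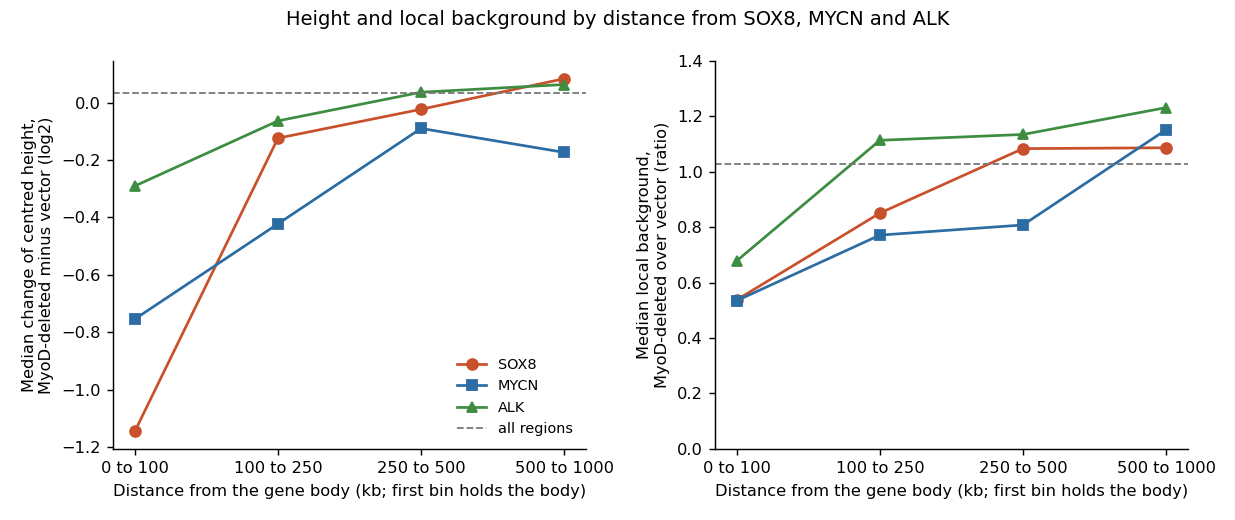
Median change of centred log2 height (left) and ratio of the median local background, MyoD-deleted over vector (right), for regions in bins of distance in kb from the bodies of SOX8, MYCN and ALK; dashed lines are all regions. At SOX8 the median change went from −1.14 within 100 kb to −0.12 in the next bin, and for MYCN the bin from 100 to 250 kb holds only 2 regions.

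Sequence near the summits was compared as shares, with no test. CAGCTG occurred within 100 bp of the top summit in 24 of the 42 regions that were lower (57.1%), in 18 of the 72 without a call (25.0%) and in 1 of the 4 that were higher. It was found near 25.1% of all 105569 summits and near 57.1% of all summits lower by height. Of the 11 lost regions 8 held it, and of the 5 gained ones none, against 54.8% of all lost and 13.2% of all gained regions. By gene it was found in 13 of 23 regions of SOX8 (56.5%), 7 of 17 of MYCN, 19 of 52 of ALK (36.5%), 7 of 22 of PAX3 and 4 of 18 of FOXO1.

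The AP-1 letters TGACTCA were found in 3 of the 42 lower regions (7.14%), in 17 of the 72 without a call (23.6%), in 2 of the 5 gained and in none of the 11 lost regions. They were in 17.9% of all regions, and in 14.5% of all lower, 27.4% of all gained and 10% of all lost regions. TAATTA was near 4 of the 236 summits, against 3.14% of all, and GGAATG near 50 (21.2%, against 17.3%). GGAATG was in 13 of the 42 lower regions (31%), against 16.6% of all lower regions, and in 14 of the 72 without a call (19.4%). It was in none of the 11 lost and 2 of the 5 gained regions, against 15.7% of all lost and 24.5% of all gained regions. GTCACGG was near none of the 236, where 1.25% of all regions held it. A match says only that these letters are in the window, and the fusion's own binding was not measured here.

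Among 15 further genes that are known as targets of the fusion, 35 of 144 tested regions were lower (24.3%) and 15 higher (10.4%), with a median change of −0.055. Of all regions 12.8% were lower and 11.4% higher. The lower regions were concentrated at MYOG (10 of 15 tested) and at MYOD1, the targeted gene (7 of 13). Of the 274 regions of the 15 genes 17 were gained (6.20%) and 6 lost (2.19%), where 4.56% and 1.78% of all regions were. At the 5′ ends calls were made for MYOG, MYOD1 and CXCR4. MYOG, the myogenic factor downstream of MyoD, was at 1.52, 1.94 and 1.80 in vector and 0.94, 0.71 and 1.29 in MyoD-deleted libraries (chr1:203085843-203086499; −0.78, limma adjusted p = 0.000713), and its second region there changed by −0.46 (limma, adjusted p = 0.0321). MYOD1 changed by −0.49 (limma, adjusted p = 0.0021) and CXCR4, a chemokine receptor, by −0.60 (limma, adjusted p = 0.000649).

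The paralogs of the fusion partners (PAX1, PAX2, PAX5, PAX6, PAX8, PAX9, FOXO3, FOXO4 and FOXO6) had 14 of 78 tested regions lower (17.9%) and 8 higher (10.3%). Of all regions 12.8% were lower and 11.4% higher. The median change of the paralogs was −0.019. Of their 152 regions 4 were gained (2.63%) and 6 lost (3.95%). Of the paralogs FOXO3, FOXO4 and FOXO6 had a region at the 5′ end, and none was called there, with changes of −0.0036, −0.049 and 0.24. By rank of fold enrichment 4 regions of the paralogs were lower (5.13%) and 3 higher (3.85%), and 8 (5.56%) and 5 (3.47%) of the further targets, shares near the 4.67% and 4.12% of all regions.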

How the data were processed

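Peak lists of 6 ATAC-seq libraries were used, 3 of vector and 3 of MyoD-deleted cells by the sample labels. The authors used Rsubread for alignment of read pairs (hg38), filtered these for proper pairs and ran MACS2 on each library alone. The labels also name bcl2fastq 2.20 and FastQC. The methods name an exclusion list but not the step at which it was used. In the deposited files the fold enrichment is a ratio of summit pileup to local background within a library, the −log10 p and q describe its summit, and the score follows the −log10 q. None is normalized between libraries. The authors tested read counts with DESeq2, which were not used here. Depth in reads is unknown from the lists.

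The pileup and background of each peak were recovered from its fold enrichment and −log10 p under the Poisson model of MACS2, and all came out within 0.05 of a whole number. The smallest background of a library, which follows its depth, was the unit of height. After 1 mitochondrial peak per library was left out, overlapping or touching peaks were merged. Regions called in all 6 libraries were compared with limma 3.58.1 (R 4.3.3, eBayes with a trend, Benjamini-Hochberg adjustment over 47885 regions, called at 0.05), without a block. Values per gene were compared over the 20 assignments of the libraries. Scripts used Python 3.11.15, numpy 2.4.6, scipy 1.17.1, pandas 2.3.3 and pysam 0.24.0, and were tested on simulated data. The regions described are, for each gene, those within 2 kb of the 5′ end, the highest one, those gained or lost, and up to 5 with the largest called change. Introns and exons are numbered in the MANE transcript. The genes and lists were chosen with earlier results of these data known. The result for 1 of the marker genes examined is not reported here.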

Additional observations from a re-analysis of the deposited data

How the results depend on the processing

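At the 10 genes more regions were lower than higher by height in every alternative tried. Without centring 13 were higher, and with log2 fold enrichment in place of height 10 were lower. By the rank of −log10 p 33 were lower. With 10 kb in place of 100 kb around the genes 26 regions were lower and 0 higher by height, and 0 higher by rank. With only regions nearest to the gene's own 5′ end, 25 were lower and 1 higher by height, 4 lower and 1 higher by rank, 2 gained and 6 lost. With peaks that cover at least 50% of a region 6 were lower by rank. With each library left out, 34 to 45 were lower and 2 to 7 higher by height, 3 (without vector replicate 2) to 11 lower and 1 to 4 higher by rank, 5 to 10 gained (10 without vector replicate 1) and 12 to 17 lost (17 without vector replicate 2). A −log10 q of at least 5 and equal numbers of peaks left these counts within 1.5 times. The cause of these moves was not tested. The change of the median height per gene reversed at PAX3 with 10 kb (−0.33), at FGFR4 with 10 kb (−0.54), with nearest regions (−0.80) and with fold enrichment (−0.080), at PAX7 without centring (0.018), at FOXO1 and MYCN with fold enrichment (0.11 and 0.056), and at PIPOX without centring (0.18). With each library left out it ran from −0.077 (without MyoD-deleted replicate 2) to 0.062 at FGFR4, from −0.30 to 0.0034 (without vector replicate 3) at PAX7, and from −0.087 to 0.10 at PIPOX, where it was positive without vector replicate 2 or MyoD-deleted replicate 1 or 3. At SOX8, ALK and NOS1 it was negative in every alternative. With the replicate number as a block (replicate block), 40 were lower and 5 higher by height, and 8 lower and 3 higher by rank. Libraries with the same number did not deviate together (r = −0.040, −0.20 and 0.093 over the 47885 regions), so the numbers name but do not pair them. Regions not called in every library were not tested by height, and the depth behind a missing peak is unknown.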
